A study of Drosophila melanogaster with 4 samples.

Results

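Regions enriched for histone H4 on chromosome 4 and on the 6 heterochromatic scaffolds named 2LHet, 2RHet, 3LHet, 3RHet, XHet and YHet were described in late embryos of Drosophila melanogaster. The members were all regions named as enriched on these 7 sequences, chosen by sequence name alone and not by any measured value. They numbered 414 of 15405 regions in the list of replicate 1 (2.69%), 326 of 12952 in the list of replicate 2 (2.52%) and 735 of 22525 in the combined list of the replicate set (3.26%). Chromatin came from 14 to 16 h embryos of the wild-type strain Oregon-R (Oregon-R-modENCODE), which had been fixed in 1.8% formaldehyde. It was analysed by ChIP-seq, in which fragments bound by an antibody, here to H4, are sequenced. There were 4 libraries: for each of 2 replicates, an H4 ChIP and a genomic DNA input that was its control. Whole embryos mix all their cell types. No label states that the replicates were separate collections, and the differences between them may be technical only.

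Histone H4 is a core subunit of every nucleosome, so an H4 ChIP reports where nucleosomes are recovered and not a particular mark. Heterochromatin is the compact, repeat-rich chromatin around the centromeres and along the Y chromosome. In flies it carries H3K9 methylation and the protein HP1a. The Het scaffolds hold assembled pieces of it, named after the arm or chromosome they were assigned to. Chromosome 4, the dot chromosome, is small and rich in repeats, yet it carries many active genes that lie within HP1a-bound chromatin and are bound by the protein POF.

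All values below describe 1 group of 2 ChIP libraries. No comparison over samples could be tested, so each difference between sequences is set beside the difference between the 2 replicates, with no p-value. The arms 2L, 3L and 3R, joined as one class where not named singly, serve as the comparison, and the 6 Het scaffolds joined are called Het. No read counts were given in the lists, so the depth behind a region is unknown. Each region carries a score of the authors' making. Scores behaved as values on a log2 scale, as described with the processing, and differences between them are therefore given as differences and not as folds.

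Enriched regions were sparse on all 7 sequences. Densities and covered shares are relative to the full stated length of each sequence. Repeats, assembly gaps and whether reads could be mapped were not analysed, so their part in these values was not tested. Chromosome 4 (1.35 Mb) held 36 regions in replicate 1 and 32 in replicate 2, or 26.6 and 23.7 per Mb. The 6 Het scaffolds (9.28 Mb together) held 378 and 294, or 40.7 and 31.7 per Mb. The arms held 124 and 104 per Mb. The density of chromosome 4 was thus 0.221 ± 0.00908 times that of the arms and the density of Het was 0.316 ± 0.0169 times (SD, n = 2 replicates). Both replicates gave the Het class more regions per Mb than chromosome 4. Among the scaffolds 3LHet and 3RHet were dense, with 46.2 and 46.1 regions per Mb in replicate 1 and 34.8 and 40.5 in replicate 2. 2RHet was sparser, with 34.7 and 24.9. YHet was the sparsest in both, with 20.2 and 11.5 per Mb. XHet had 58.8 and 39.2 per Mb, but this rests on 12 and 8 regions on a scaffold of 0.204 Mb. Replicate 2 had fewer regions than replicate 1 on each of the 7 sequences.

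By bases the order was similar. The share of chromosome 4 in regions was 0.185 ± 0.0118 times that of the arms, and the share of Het 0.289 ± 0.00884 times (SD, n = 2 replicates). Within the Het class 3RHet was covered to 12.1% and 9.97% in replicates 1 and 2, 3LHet to 10.4% and 8.09% and 2RHet to 7.81% and 5.60%. 3RHet was therefore above 3LHet and 3LHet above 2RHet in each replicate, although on each of the 3 the replicates themselves differed by an amount similar to that between neighbours in this order. XHet (11.3% and 7.27%), 2LHet (6.80% and 4.66%) and YHet (5.06% and 2.64%) are short, and each region weighs heavily there. The best covered of the 7 sequences, 3RHet, remained far below the least covered arm, 2L, which had 28.4% and 23.2%.

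**Figure D1:**
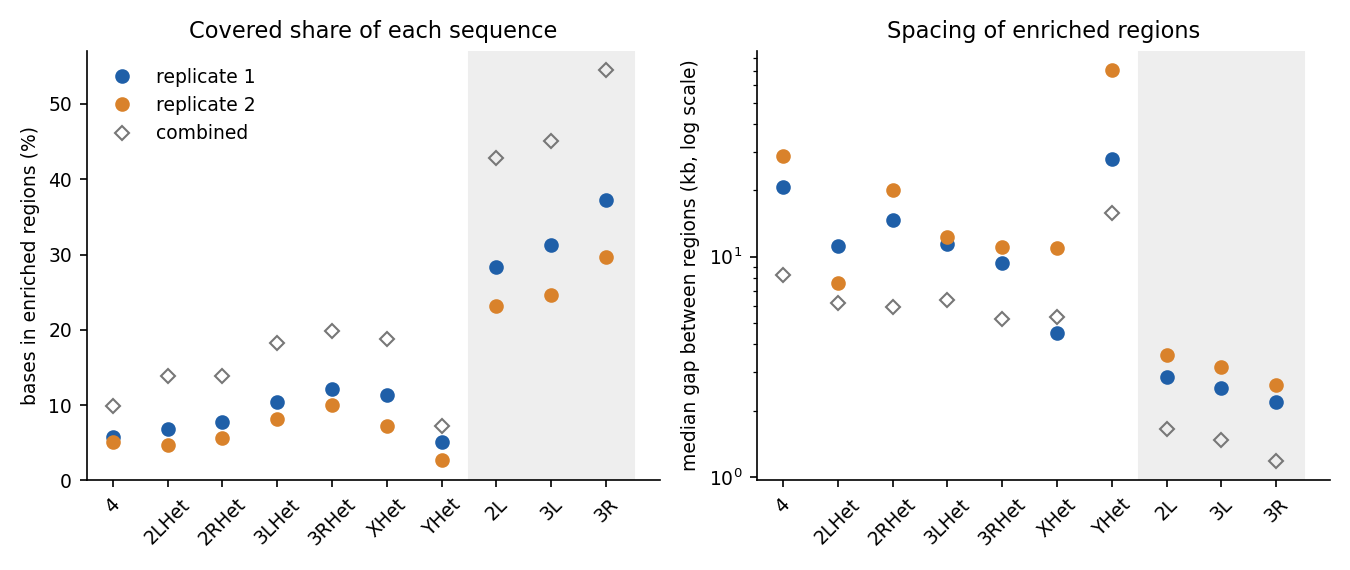
Share of bases in H4-enriched regions (left, percent) and median gap between neighbouring regions (right, kb, log scale) on chromosome 4, the 6 Het scaffolds and, on grey, the arms 2L, 3L and 3R. Filled points are the 2 replicate lists and open diamonds the combined list. In every list the 7 sequences lie below the arms in covered share, and their median gaps, from 4.50 kb to 70.2 kb in the replicate lists, lie above those of the arms in the same list, from 2.20 to 3.58 kb.

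Spacing set these sequences apart more than width did. The median gap between neighbouring regions was 20.8 kb and 28.7 kb on chromosome 4 in replicates 1 and 2, 11.5 and 13.1 kb on Het, and 2.44 and 3.02 kb on the arms. As a ratio to the arms this was 9.01 ± 0.686 for chromosome 4 and 4.53 ± 0.271 for Het (SD, n = 2 replicates). Regions still came in close company at times. Gaps under 1 kb made up 17.1% and 12.9% of gaps on chromosome 4, 14.2% and 12.2% on Het, and 28.3% and 25.9% on the arms. At the other end, gaps over 50 kb took up 55.7% and 59.9% of the length of chromosome 4 and 40.2% and 53.5% of the Het scaffolds, against 5.65% and 11.6% of the arms. The large scaffolds differed here too: in replicate 1 such gaps filled 50.3% of 2RHet but 31.0% of 3LHet and 33.8% of 3RHet. In replicate 2 the values were 68.7%, 50.4% and 33.5%. The share of 2RHet was the highest of the 3 in both replicates. That of 3LHet differed between the replicates about as much as it differed from 2RHet, and 3LHet and 3RHet changed order.

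Long empty stretches were shared by the replicates to a large extent. Whether reads could be mapped within these stretches, or whether they hold assembly gaps, was not examined. The longest stretch of chromosome 4 without a region in either replicate list ran from 167418 to 410565 (243 kb). Replicate 1 alone had its longest gap from 167356 to 410628 and replicate 2 from 167418 to 410565, so their borders differed by at most 63 bp. In all, 5 stretches of more than 50 kb without a region in either list added up to 49.5% of chromosome 4. The same share was 48.6% on 2RHet (18 stretches), 32.4% on 3RHet (10) and 26.8% on 3LHet (9). On YHet a single stretch from 29528 to 203823 (174 kb) was free of regions in both lists, and 2 such stretches made up 68.0% of the scaffold. The longest shared empty stretches elsewhere were at 2634094 to 2809537 on 2RHet (175 kb), 2269461 to 2400659 on 3LHet (131 kb), 2351798 to 2480147 on 3RHet (128 kb), 57238 to 153686 on 2LHet (96.4 kb) and 29147 to 84555 on XHet (55.4 kb). The combined list placed some regions in these stretches. Its own longest gaps were from 222222 to 384392 on chromosome 4 (162 kb), 1132667 to 1286016 on 2RHet (153 kb), 2277870 to 2390365 on 3LHet (112 kb), 435271 to 541227 on 3RHet (106 kb), 57080 to 134705 on 2LHet (77.6 kb), 29309 to 62698 on XHet (33.4 kb) and 30425 to 203756 on YHet (173 kb).

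Regions were about as wide here as on the arms at the median. Wide ones were rarer on chromosome 4 and on Het joined, though not on each scaffold. The median width was 1824 and 1825.5 bp on chromosome 4, 1941.5 and 1967.5 bp on Het and 1993 and 1966 bp on the arms, in replicates 1 and 2. The ratio to the arms was 0.922 ± 0.00943 for chromosome 4 and 0.987 ± 0.0188 for Het (SD, n = 2 replicates), and the Het ratio lay on different sides of 1 in the 2 replicates (0.974 and 1.00076). The upper quartile showed a larger gap, at 2131 and 2127.5 bp on chromosome 4, 2619 and 2610 bp on Het and 3012 and 2848 bp on the arms. Regions of 5 kb or more were 1 of 36 and 1 of 32 on chromosome 4. They were 19 of 378 (5.03%) and 14 of 294 (4.76%) on Het, against 7.88% and 6.43% on the arms. Of the 19 on Het in replicate 1, 8 were on 3RHet and 7 on 3LHet, while the longer 2RHet had 3. As shares of regions in replicates 1 and 2 they were 6.90% and 5.88% on 3RHet and 5.93% and 6.74% on 3LHet. On 2RHet they were only 2.63% and 2.44%. In replicate 2, 3LHet was thus above the arms.

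Scores were higher on Het than on the arms, and on chromosome 4 they were slightly lower in the full replicate lists. The median score was 0.66 and 0.68 on Het, 0.49 and 0.53 on chromosome 4, and 0.55 and 0.57 on the arms. Het minus arms was 0.11 in each replicate (SD 0.0066, n = 2 replicates) and chromosome 4 minus arms was -0.06 and -0.04 (SD 0.017). The first difference was larger than the spread between replicates. The second was small, and it did not keep its sign. It was 0.0032 in the combined list and 0.0963 (SD 0.0624) among regions at or above the median score of their replicate list, and with regions of at least 2000 bp it was -0.00598 (SD 0.0817), with the replicates on different sides of 0. As a rank within its whole list, the median region stood at percentile 67.3 and 72.9 on Het and at 29.3 and 32.8 on chromosome 4. The median ranks of 2RHet, 3LHet and 3RHet lay between percentiles 65.7 and 74.5 in both replicates, with differences between these scaffolds of the same size as those between replicates. 2LHet (67.5 and 79.5), XHet (88.5 and 79.9) and YHet (97.4 and 99.0) ranked high from few regions.

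**Figure D2:**
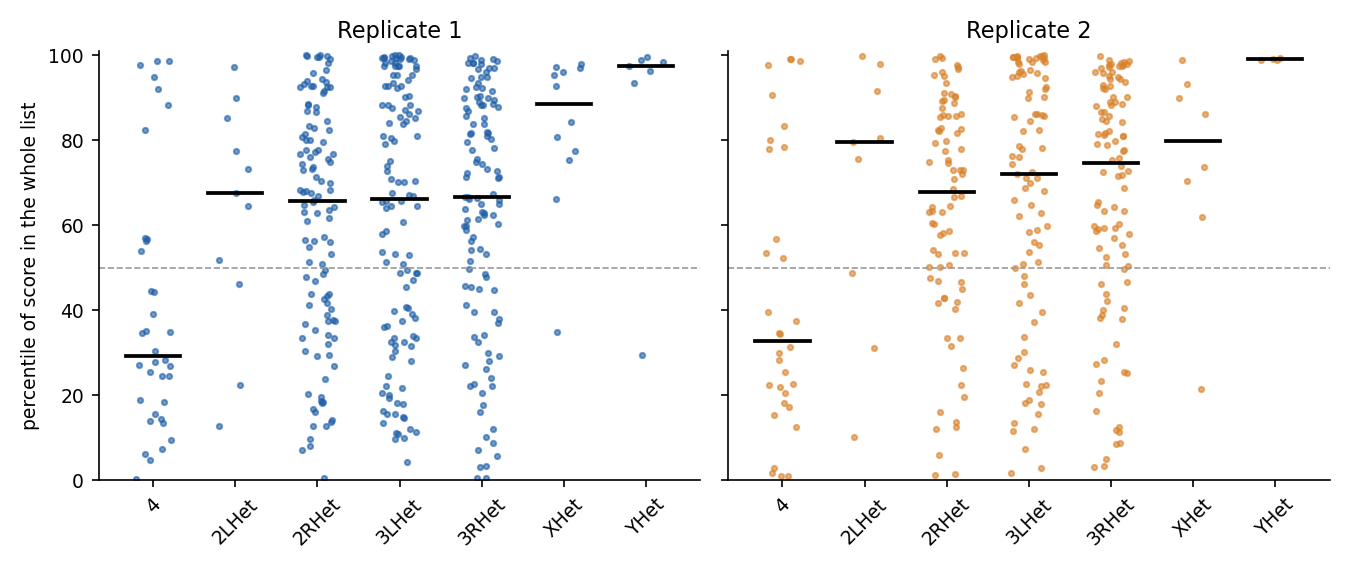
Percentile of each region's score within the whole list of its replicate (vertical axis, percent) on chromosome 4 and the 6 Het scaffolds. Each point is a region, black bars are medians and the dashed line is the middle of the list. Chromosome 4 has its median at percentile 29.3 and 32.8 with a small group of regions near the top, while every Het scaffold has its median above percentile 65.

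Het regions reached the top of the score range more often than regions of the arms, though most of the top came from elsewhere. The highest scoring 10% of the whole list, 1541 and 1296 regions, took in 89 of 378 Het regions (23.5%) in replicate 1 and 79 of 294 (26.9%) in replicate 2, against 7.79% and 7.52% of the regions of the arms. On chromosome 4 it took in 5 of 36 and 5 of 32. The lowest 10% held 13 of 378 and 11 of 294 Het regions (3.44% and 3.74%), against 12.3% and 12.2% of the regions of the arms. High scores went with great width on the arms, where width and score had a Spearman rho of 0.73 and 0.72 across regions. On Het rho was 0.40 and 0.37, and on chromosome 4 it was 0.39 and 0.66. These are correlations across regions of 1 library each, which are not independent. Among regions that scored at or above the median of their list, the median width was 2196 and 2077.5 bp on Het but 2962 and 2794 bp on the arms. Below that median the classes were close, at 1616 and 1588 bp on Het and 1670.5 and 1641 bp on the arms. A high-scoring Het region was therefore typically narrower than a high-scoring region of an arm. The same held on chromosome 4, where the median width at or above the list median was 2273 and 2541.5 bp, from 11 and 12 regions.

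In both replicate lists the high scores of chromosome 4 lay at its ends. Windows of 50 kb at each end, chosen after the values were seen, held 7 regions in each replicate, with median scores of 0.96 and 1.00. The rest of the chromosome held 29 and 25, with medians of 0.48 and 0.51. All 5 regions of chromosome 4 in the top 10% of each replicate list were in the end windows. No interior region scored above 0.77 in replicate 1 or 0.73 in replicate 2. In the combined list 7 of the 9 top regions were in the end windows, and the interior held the other 2, with a maximum of 1.43 in a region from 613486 to 614490 that neither replicate list contained. The end windows were covered to 25.1% and 23.0%, while the interior was covered to 4.21% and 3.59%. With windows drawn in this way, the low covered share and the low scores of the replicate lists lay mostly in the interior. The ends had a covered share near that of 2L, the least covered arm, and below that of the arms joined (32.6% and 26.0%). Since the windows followed from the values, this split is a description only.

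**Figure D3:**
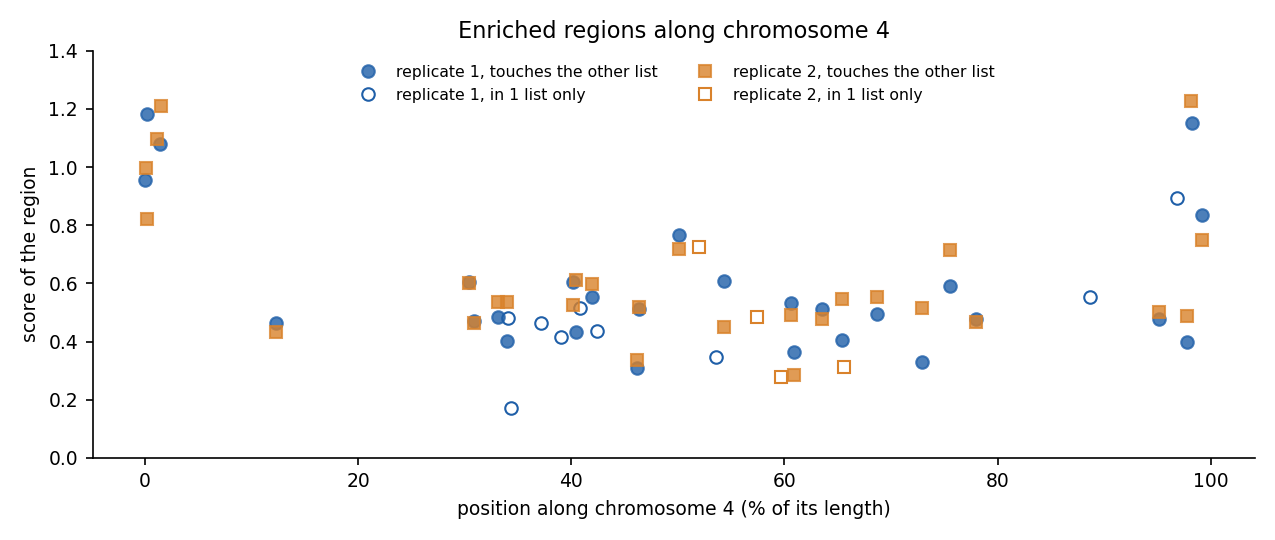
Score of each H4-enriched region (vertical axis) by its position along chromosome 4, in percent of the chromosome's length, for replicate 1 (circles) and replicate 2 (squares). Filled symbols touch a region of the other replicate and open symbols do not. Regions scoring above 0.77 sit at the outermost few percent of the chromosome, and the interior is a band of lower scores with an empty stretch of 243 kb before the middle.

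The widest region of chromosome 4 was near its first base. It ran from 13382 to 23863 in replicate 1 (10.5 kb, score 1.08). Replicate 2 divided it into regions from 13209 to 16936 (score 1.10) and from 17252 to 22641 (5.39 kb, score 1.21), and the combined list joined it from 12933 to 24266 (11.3 kb, score 1.07). Closer to the end, replicate 1 had regions from 14 to 1476 (score 0.96) and from 1777 to 4747 (score 1.18), which replicate 2 gave as 351 to 1714 (score 1.00) and 1795 to 4662 (score 0.82). Pairs, each made of a region of either replicate whose largest overlap is the other, were named by rule. At the far end the highest scoring pair ran from 1325782 to 1329516 in replicate 1 (3.73 kb, score 1.15) and from 1325574 to 1329547 in replicate 2 (3.97 kb, score 1.23). It was followed by a pair at 1339181 to 1342403 and 1338756 to 1342302, with scores of 0.83 and 0.75. The remaining pair of the 5 widest lay in the interior, from 676439 to 679065 and from 676449 to 679032, with scores of 0.77 and 0.72, the highest of any interior pair in either replicate. Interior pairs were otherwise weak. The 21 pairs there had median scores of 0.48 and 0.52 and minima of 0.31 and 0.28.

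The interior was not evenly filled. Of 10 equal parts of chromosome 4, numbered from its first base, part 3 held the centre of no region in either replicate and part 2 of only 1 in each. Parts 4 and 5 together held 15 regions in replicate 1 and 9 in replicate 2, and part 9 held 1 and 0. The 3 large scaffolds had no empty part in either replicate, but their parts were longer. The first part ended at base 251751 on 3RHet, 255549 on 3LHet and 328876 on 2RHet, against 135186 on chromosome 4. Empty parts are therefore not compared at equal length. 3LHet had a clear maximum in part 6, from 1277747 to 1533295, with 20 regions in each replicate and 23.2% and 19.9% of bases covered, while its last part was covered to 1.72% and 1.31%. 3RHet was covered most in part 7, to 18.6% and 18.5%. 2RHet was covered most in its last part, to 13.0% and 9.03%. On each of the 7 sequences the 2 replicates were covered most in the same part.

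The 5 widest pairs of the Het class were all on 3RHet. The first ran from 1640174 to 1652889 in replicate 1 (12.7 kb, score 1.04) and from 1645692 to 1651821 in replicate 2 (6.13 kb, score 0.92). Replicate 2 divided this place and also had a region from 1640163 to 1644861 (score 1.16). In all, 87.8% of the replicate 1 region lay in replicate 2. The combined list gave 1640110 to 1654642 (14.5 kb). The pairs that followed were much alike in both lists. They lay at 1515642 to 1524263 and 1515555 to 1524206 (8.62 and 8.65 kb), at 2093728 to 2102319 and 2093847 to 2102482 (8.59 and 8.64 kb), at 1456489 to 1463982 and 1456782 to 1463707 (7.49 and 6.93 kb), and at 19958 to 27352 and 19751 to 26123 (7.39 and 6.37 kb). Width and score did not go together among them. The pair at 1515642 had scores of only 0.65 and 0.58, the latter at percentile 46.2 of its list, whereas the one at 2093728 scored 1.09 and 0.88.

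Highest scoring pairs were ranked by the mean of their 2 score percentiles, each within its own list. Of the 5 such pairs of the Het class, 4 lay on 3LHet and YHet, and none was among the 5 widest. A rank by mean score would name others in part, among them a 2RHet pair starting at 1347894 and 1346472 with scores of 0.78 and 1.99. On 3LHet the pair from 1886620 to 1887924 and from 1885834 to 1887863 scored 1.47 and 2.08 over 1.31 and 2.03 kb. On YHet the pair from 22979 to 29527 and from 24857 to 26870 scored 1.49 and 1.22, and another from 266871 to 269651 and from 268467 to 270479 scored 1.20 and 1.17. The others lay on 3LHet from 863900 to 865834 and 863594 to 864941 (scores 1.36 and 1.08) and on 3RHet from 1663083 to 1666012 and 1663292 to 1666044 (1.19 and 1.11). The widest combined regions of the other scaffolds ran from 3182066 to 3189750 on 2RHet (7.68 kb), from 1617675 to 1626369 on 3LHet (8.70 kb), from 256170 to 261712 on 2LHet (5.54 kb) and from 156987 to 161579 on XHet (4.59 kb). All 4 had between 61.0% and 96.7% of their bases in each replicate list. The widest single-replicate regions were at 1316044 to 1322638 on 2RHet in replicate 1 and 1316433 to 1322332 in replicate 2, and on 3LHet at 1412027 to 1418991 and 1279054 to 1285755.

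The short scaffolds can be given nearly whole. YHet had 7 regions in replicate 1 and 4 in replicate 2, and all 4 touched regions of replicate 1. There were 3 places that carried them in both lists: 22979 to 29527, the pair around 266871 to 270479, and the far end from 339698 to 343805. Scores there ran from 1.00 to 1.49 in replicate 1 and from 1.14 to 1.34 in replicate 2. The regions of replicate 1 alone, at 203824, 298084 and 310689, scored 0.49, 1.15 and 0.93. On XHet, 6 regions of each replicate touched the other list. They lay between 84556 and 90606 and from 142542 onward. Between these places replicate 1 had 5 regions, from 94353 to 125888, where replicate 2 had none, and their scores of 0.91 to 1.10 were all within the top 10% of replicate 1. With a further region at 177677 to 179133 (score 0.97) these were the 6 regions of XHet found in replicate 1 only. The regions of XHet that touched replicate 2 scored lower, from 0.51 to 0.79. On 2LHet the widest region of replicate 1, from 256282 to 261094, appeared in replicate 2 as a pair of regions, from 256358 to 258119 and from 258388 to 261156. The widest region of replicate 2 was there from 190143 to 192921, and 92.4% of it lay in replicate 1. The highest score on 2LHet in either replicate, 2.18, belonged to a region of replicate 2 from 40807 to 42289 that replicate 1 lacked.

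Agreement between the replicates was compared by bases and by number of regions. The Jaccard index (bases in both lists over bases in either) was 66.2% on chromosome 4, 54.3% on Het and 63.7% on the arms. Of the bases of replicate 1, 74.6% on chromosome 4, 62.1% on Het and 70.0% on the arms were shared, and of those of replicate 2 the shares were 85.4%, 81.3% and 87.6%. By number, 27 of 36 regions of replicate 1 on chromosome 4 touched replicate 2 (75%, exact 95% interval 57.8 to 87.9%), against 236 of 378 on Het (62.4%, 57.3 to 67.3%) and 71.3% on the arms (70.4 to 72.2%). For replicate 2 the shares were 87.5% (71.0 to 96.5%), 82.7% (77.8 to 86.8%) and 89.1% (88.4 to 89.8%). These are Clopper-Pearson intervals. They take each region as independent, so they reflect counting error alone. Regions of 1 library are not replicates, so the intervals do not test the classes against each other. The share of Het was below that of the arms in both lists. That of chromosome 4 was above the arms in replicate 1 and below them in replicate 2. The covered shares given above also differed between the classes, and their part in the index was not tested. The rank of chromosome 4 depended on the settings. Its index was below those of the arms and of Het when only regions of 2000 bp or more were kept, or when replicate 1 was cut to the covered length of replicate 2 (0.882 and 0.812 times the arms in place of 1.04, with Het at 0.912 and 0.895).

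Borders were placed closest together on chromosome 4 at their ends and on the arms at their starts. Over 27 pairs on chromosome 4 the starts differed by a median of 169 bp and the ends by 88 bp, over 229 Het pairs by 179 and 173 bp, and over 6444 pairs on the arms by 133 and 130 bp. Both ends lay within 200 bp in 15 of 27 pairs on chromosome 4 (55.6%), 79 of 229 on Het (34.5%) and 41.4% on the arms. On XHet and YHet, with 6 and 3 pairs, the starts differed by 815 and 1596 bp and the ends by 361 and 828 bp. Replicate 1 had the wider region in 12 of 27 pairs on chromosome 4, but in 66.4% of Het pairs and 68.9% of pairs on the arms. Scores of paired regions had a Spearman rho of 0.69 on chromosome 4, 0.75 on Het and 0.77 on the arms, across pairs. It was 0.85 on 3LHet and 0.82 on 3RHet, but 0.54 on 2RHet, where 66 pairs were found.

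**Figure D4:**
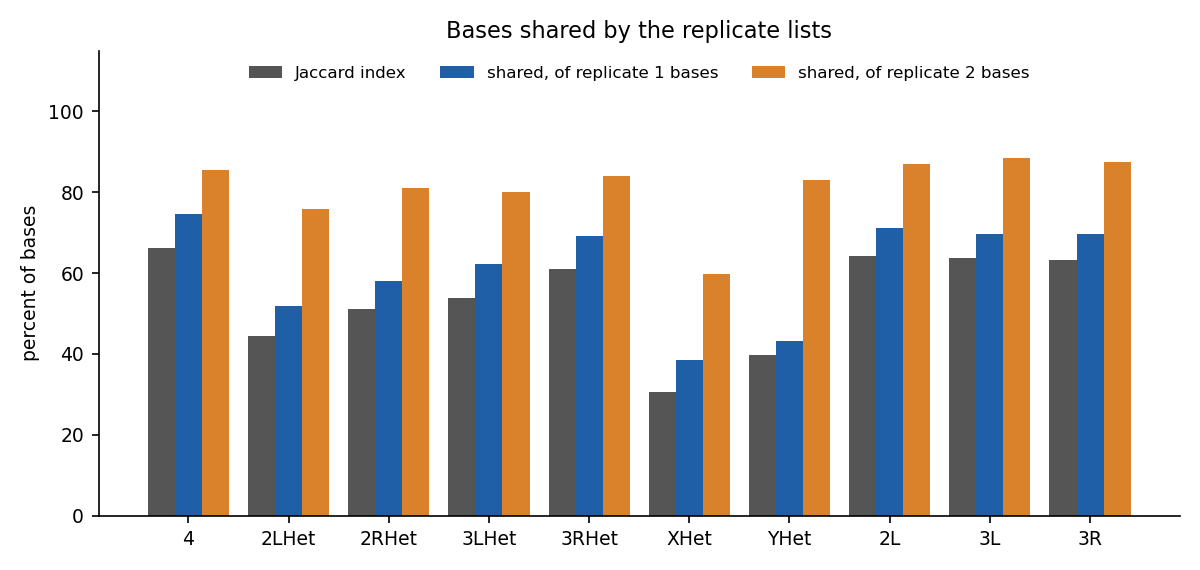
Jaccard index of the replicate lists and the share of each list's bases that lie in the other (vertical axis, percent) on chromosome 4, the 6 Het scaffolds and the arms 2L, 3L and 3R. Chromosome 4 (66.2%) stands level with the arms (63.3% to 64.2%), 3RHet (61.1%) is next, and XHet (30.6%) and YHet (39.7%), with 12 and 7 regions in replicate 1, are lowest.

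Regions found in a single replicate differed most between Het and the arms. On the arms they were weak, with a median score of 0.47 for the 2684 regions of replicate 1 alone, against 0.59 for those that touched replicate 2. For the 856 of replicate 2 alone it was 0.49 against 0.58. On Het the 142 regions of replicate 1 alone had a median of 0.59 against 0.69, but the 51 of replicate 2 alone scored above those that were shared, at 0.76 against 0.68. The contrast was widest at the top of the lists. Of the regions of replicate 1 alone, 37 of 142 on Het (26.1%) were in the top 10% of their list by score, against 8 of 2684 on the arms (0.298%). Of the regions of replicate 2 alone, 20 of 51 on Het (39.2%) and 6 of 856 on the arms (0.701%) were. Regions that touched the other list were in the top 10% in 22.0% and 24.3% of cases on Het and in 10.8% and 8.35% on the arms. Each large scaffold showed it. The shares of single-replicate regions in the top 10% were 8 of 48 and 4 of 12 on 2RHet, 13 of 48 and 9 of 20 on 3LHet, and 7 of 32 and 4 of 15 on 3RHet, in replicates 1 and 2. On chromosome 4 they were 1 of 9 and 0 of 4, and the median scores of single-replicate regions (0.47 and 0.40) were below those of shared ones (0.51 and 0.54), as on the arms.

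**Figure D5:**
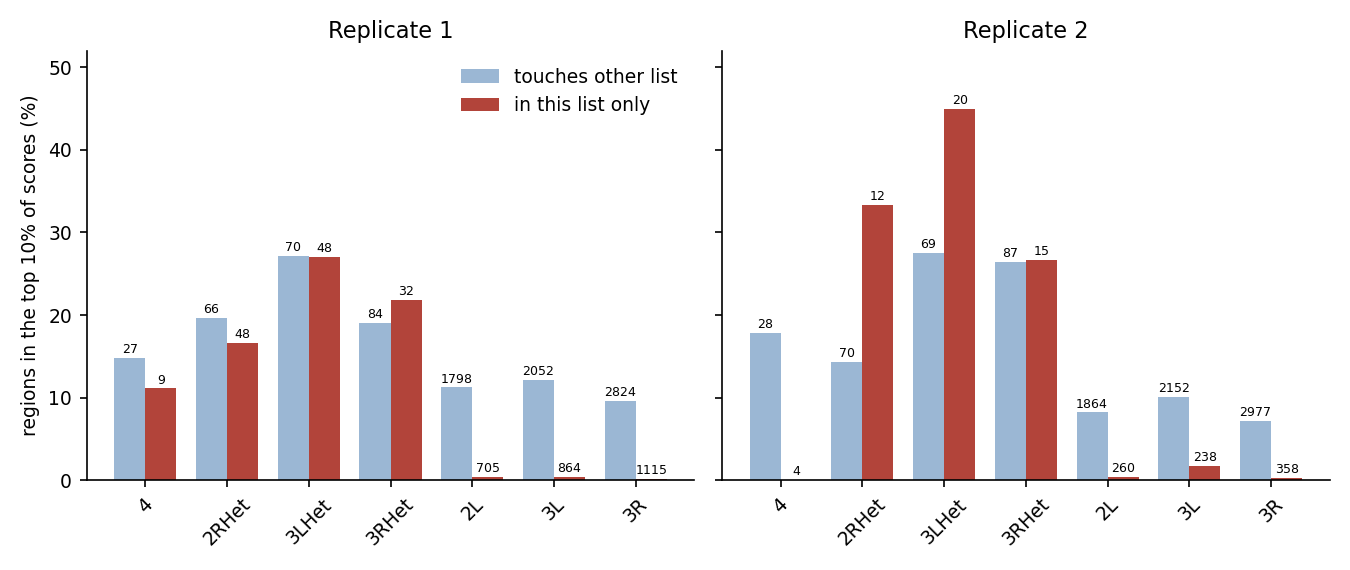
Share of regions whose score is in the top 10% of their whole list (vertical axis, percent), for regions that touch the other replicate (blue) and regions in 1 list only (red), on chromosome 4, the 3 large Het scaffolds and the arms 2L, 3L and 3R. Numbers above the bars are the regions behind each share. Red bars reach 16.7% to 45% on the Het scaffolds and at most 1.68% on the arms.

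In width, by contrast, the single-replicate regions of Het were like those of the arms. Their medians were 1557 and 1495 bp on Het and 1542.5 and 1455.5 bp on the arms, in replicates 1 and 2. Nearly all were also in the combined list, 140 of 142 and 48 of 51 on Het, 9 of 9 and 4 of 4 on chromosome 4, and likewise 2663 of 2684 and 842 of 856 on the arms.

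The combined list added more on chromosome 4 and on Het joined than on the arms. Relative to the mean of the replicates it held 1.99 times as many regions on Het and 1.97 times as many on chromosome 4, against 1.58 times on the arms, and covered 1.95, 1.83 and 1.63 times the bases. By number the short XHet (1.70) and YHet (1.64) were close to arm 2L (1.67), while the remaining scaffolds had 1.83 to 2.60. Of its 668 Het regions, 219 touched both replicate lists (32.8%, exact 95% interval 29.2 to 36.5%), 169 touched one and 280 touched neither (41.9%, 38.1 to 45.8%). On chromosome 4 these were 26, 13 and 28 of 67 regions, or 38.8% (27.1 to 51.5%) touching both and 41.8% (29.8 to 54.5%) touching neither. On the arms 44.1% (43.2 to 44.9%) touched both and 32.4% (31.6 to 33.2%) touched neither. These intervals too reflect counting error alone and do not test the classes against each other. Regions in neither list were narrow in each class, with medians of 1301.5 bp on Het, 1207 bp on chromosome 4 and 1275 bp on the arms. In bases they made up 386 of 1535 kb on Het and 37.0 of 133 kb on chromosome 4.

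The highest single scores of the combined list belonged to regions that neither replicate list contained, on most of these sequences and on the arms. On chromosome 4 the highest score, 2.39, was that of a region from 1347958 to 1349017 (1.06 kb). On 2LHet it was a region from 354237 to 355350 (score 2.50), on 2RHet from 1995258 to 1996271 (3.26), on 3LHet from 616750 to 618720 (2.00) and on 3RHet from 92944 to 93944 (2.39). None of these 5 had a base in either replicate list. XHet and YHet differed, with top regions at 117325 to 119940 (score 0.85, 76.0% in replicate 1 and none of it in replicate 2) and at 23013 to 30424 (score 1.25, 87.9% and 54.2%). Of the 24 Het regions with scores of 1.5 or more, 20 touched neither replicate, 4 touched one and none touched both. All 9 such regions of the arms touched neither, and the highest scores of 2L (3.26), 3L (2.97) and 3R (1.87) were also in regions of that kind. Over the whole top 10% of the combined list by score, support by the replicates made less difference on Het joined than on the arms. It took in 63 of the 219 Het regions that touched both replicates (28.8%), 33 of the 169 that touched one (19.5%) and 74 of the 280 that touched neither (26.4%), the last with a median width of 1138 bp. On chromosome 4 these were 4 of 26, 0 of 13 and 5 of 28. On the arms they were 878 of 5994 (14.6%), 8 of 3203 (0.250%) and 36 of 4401 (0.818%). The replicate lists had no region under 1301 bp, whereas 149 Het regions and 17 of chromosome 4 in the combined list were narrower, as were 2578 on the arms. The combined list also named 14 regions as depleted, which were not examined by sequence.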

How the data were processed

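The authors deposited 3 lists of regions, 1 per H4 ChIP library and 1 combined. Coordinates are those of FlyBase r5 per the file headers. The submitters' processing notes name Bowtie 0.12.7. Which program called the regions, at what threshold, and how the combined list arose is not given in the sources used here. First and last bases are other values than measurements, and the deposited coordinates were used as 1-based. The deposited score has no stated scale. Relative to the highest tied score of each list, 2 to the power of the score difference equalled a ratio of whole numbers (denominator up to 1000, relative tolerance 1e-10) in 49.1%, 37.9% and 25.0% of the regions of replicate 1, replicate 2 and the combined list. With natural logarithms this held for 0 regions and with base 10 for 0.0584% or less, so the score was read as log2.

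Densities, covered shares, gaps, widths, score percentiles, overlaps and exact intervals were computed in Python 3.11.15 (pandas 2.3.3, NumPy 2.4.6 and, for intervals, SciPy 1.17.1). The interval functions were tested on simulated lists. Touching means at least 1 base in common. Alternatives were the higher scoring 50% of each list, joining within 1000 bp, a minimum of 2000 bp, 50% overlap, matched covered length, the combined list and each replicate alone. Named are, on each sequence, the widest region of each list, the highest scoring combined region and the longest gap of the combined list, the 5 widest and 5 highest scoring pairs of chromosome 4 and of Het, and any region of 2LHet, XHet and YHet. The longest gaps of the replicate lists, stretches empty in both, and the end windows of chromosome 4 were added after values were seen. So were the replicate 2 regions beside the widest pair of chromosome 4 and beside that of Het. The members and all measures were chosen with earlier results of these data known. Input libraries had no list of their own. Regions were not matched to genes or sequence, since the gene table at hand used Release 6 and no genome of the lists' build was used here.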

Additional observations from a re-analysis of the deposited data

How the results depend on the processing

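Every ratio below is chromosome 4 or Het over the arms, and score differences are class minus arms. Of 76 alternatives over 14 results, 5 changed direction, 39 moved and 32 stayed the same. Same means within 1 SD of the main value or, for shares of combined regions, within the exact interval. Those shares could not change direction by these rules. Values from a single replicate are counted among the 76 too. The Jaccard ratios have no spread between replicates, so each of their values is given. With the higher scoring 50% of each list, region density was 0.172 for chromosome 4 and 0.503 for Het. Covered share was 0.143 and 0.370, and median width 0.839 and 0.743. The score difference was 0.0963 (reversed) and 0.0697, and the Jaccard ratio 1.09 and 0.855. The gap ratio was 8.72 (SD 7.93) for chromosome 4 and 2.82 (SD 0.321) for Het. For chromosome 4 the replicates therefore differed widely in this ratio. With regions within 1000 bp joined, density was 0.259 and 0.378, width 0.823 and 0.911, gap 6.51 and 3.85 and the Jaccard ratio 1.03 and 0.863. With regions of at least 2000 bp, density on chromosome 4 was 0.153, covered share 0.133 and 0.268, width 0.851 and 0.911, gap 13.9 and 4.94, score difference -0.00598 and 0.0786, and the Jaccard ratio 0.882 (reversed) and 0.912. The share of combined Het regions touching both replicates was then 42.6%. In the combined list, density was 0.275 and 0.399, covered share 0.206 and 0.345, width 0.945 and 0.942, gap 6.01 and 4.18, and score difference 0.00322 (reversed) and 0.129. At matched covered length the Jaccard ratio was 0.812 (reversed) and 0.895. With 2 replicates, a value from 1 of them always lies within 1 SD of their mean, so these values say nothing of stability. Leaving out each replicate gave a Het width ratio of 0.97416 to 1.00076, the latter without replicate 1 (reversed). The cause of these reversals was not tested. Density, covered share and gap kept their direction for both classes in each alternative run, as did the score difference of Het.

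No paired analysis was possible because no result came from a test, and the inputs that share replicate numbers with the ChIP libraries have no list of regions. With 1 group of 2 libraries, differences between sequences were set only against 2 values each. Read depth is unknown, so no counting error can be given for a score or a width. Values on 2LHet, XHet and YHet rest on 12 or fewer regions per replicate.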

Other observations

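Identical scores recurred within a list. Among the strongest regions they were more frequent on the Het scaffolds than on the arms. In each list they were nonetheless less frequent among the strongest Het regions than among all Het regions. In the combined list 69 of the 170 Het regions in the top 10% by score shared their exact score with another region of that list, against 51 of 922 such regions on the arms. In replicate 1 the numbers were 25 of 89 on Het and 64 of 729 on the arms, and in replicate 2 they were 28 of 79 and 68 of 590. Over all scores 47.0% of Het regions and 40.6% of those of the arms were tied in the combined list, 53.7% and 53.5% in replicate 1, and 55.4% and 58.0% in replicate 2. The score of 2.39 that was the highest of chromosome 4 in the combined list was shared by 7 regions, 2 of them on Het.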
